A study of Mus musculus with 6 samples.

Results

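Endothelial cells line the vessels of the brain. In the present data they are the nuclei chosen by their counts of unique molecular identifiers (UMIs, each standing for 1 captured RNA molecule). A nucleus was kept when the endothelial genes Flt1, Cldn5, Mecom and Adgrl4 together had at least 5 UMIs. In addition, the pericyte genes Abcc9 and Atp13a5 together had at most 1 UMI, the meningeal fibroblast genes Bnc2 and Slc6a13 at most 1, the myelin genes Mog and Mag at most 1, and the microglial gene Csf1r 0. Among 60724 nuclei with at least 300 genes detected and at most 1% of UMIs from mitochondrial genes, out of 63383 barcodes, 1563 nuclei (2.57%) met the rule. The levels of these genes in the kept nuclei therefore describe the choice, and although they took part in the fit across all genes, they are left out of the counts and medians of gene groups compared between LPA and vehicle below.

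The nuclei came from brains of C57BL/6 S-56 mice, without olfactory bulbs and cerebellum, in a model of posthemorrhagic hydrocephalus, an enlargement of the ventricles that follows bleeding into the neonatal brain. On postnatal day 7, 5 µl of either lysophosphatidic acid (LPA, the 18:1 species, a signaling lipid of blood) in bovine serum albumin and saline, or the albumin vehicle alone, was injected into the right lateral ventricle, and both groups received the analgesic flunixin. Brains were perfused and collected on postnatal day 15, and nuclei without the neuronal marker NeuN were sorted before single-nucleus RNA sequencing. There were 3 LPA-injected and 3 vehicle-injected libraries, and the LPA concentration used for them was not given in the sources used here. The libraries LPA 2, LPA 3 and vehicle 2 carried Xist at 2218 to 2533 CPM (UMIs of a gene per 1000000 UMIs) and the libraries LPA 1, vehicle 1 and vehicle 3 less than 1, so each group held both sexes, in unequal numbers.

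Brain endothelial cells form the blood-brain barrier. Tight junctions seal the space between neighbouring cells, carriers of the solute carrier (SLC) family bring in glucose, amino acids and lipids, efflux pumps of the ABC family return drugs to the blood, and vesicle transport across the cell is kept low. The cells differ along the vessel, with arterial, capillary and venous forms, and depend on Wnt, Notch and vascular endothelial growth factor (VEGF) signals. They carry receptors for LPA and for the related lipid sphingosine 1-phosphate (S1P).

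The rule kept 227, 286 and 290 nuclei in the libraries LPA 1, 2 and 3, and 229, 225 and 306 in the libraries vehicle 1, 2 and 3. Summed over these nuclei there were 1085431, 1165169 and 1245250 UMIs in the LPA libraries and 986156, 825954 and 1031011 in the vehicle libraries, from library totals of 48852970 to 65688644 UMIs. The median UMIs per endothelial nucleus were 3674, 3150.5 and 3145 in the LPA libraries and 3149, 2654 and 2497 in the vehicle libraries, so that LPA nuclei were on the whole sequenced more deeply, with an overlap between LPA 3 and vehicle 1. No barcode was shared between libraries. Scrublet, a tool that calls droplets likely to hold more than 1 nucleus, called 19.9% to 26.8% of endothelial nuclei per library against 16.1% to 19.4% of all kept nuclei. These nuclei were retained, and values without them are given beside the results that they move most.

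The label held for most, not all, of the chosen nuclei. Of the 1563, 177 (11.3%) had at most 1 UMI of Flt1, Cldn5 and Adgrl4 together and met the rule through Mecom, a zinc finger transcription factor. Their median count over 20 endothelial genes outside the rule was 3 UMIs, against 34 in the other 1386 nuclei. Pecam1, the platelet endothelial adhesion molecule, was at 2.15 CPM over these 177 nuclei and at 394 CPM over the other 1386. Erg, an endothelial transcription factor, was at 1.07 and 340 CPM. In contrast, genes known for high expression in the choroid plexus epithelium were abundant in the 177 nuclei. Htr2c, a serotonin receptor, reached 13693 CPM against 131 in the other nuclei, and the thyroid hormone carrier Ttr reached 5638 against 62.9 CPM. Enpp2, which encodes autotaxin, the secreted enzyme that makes LPA, was at 5649 against 180 CPM.

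These nuclei were 34, 35 and 33 of the chosen nuclei in the LPA libraries and 32, 18 and 25 in the vehicle libraries, that is 14.98%, 12.2%, 11.4%, 13.97%, 8% and 8.17%. They held 94.7% of the Htr2c, 93.9% of the Ttr and 84.3% of the Enpp2 UMIs of all chosen nuclei. At least 20 Htr2c UMIs were found in 153 of them and in 5 of the other 1386. The data therefore go against the endothelial label for these nuclei, which are given no other name here and are called Mecom-kept. They were counted under the rule, and values without them are given beside the results that they move most.

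**Figure D1:**
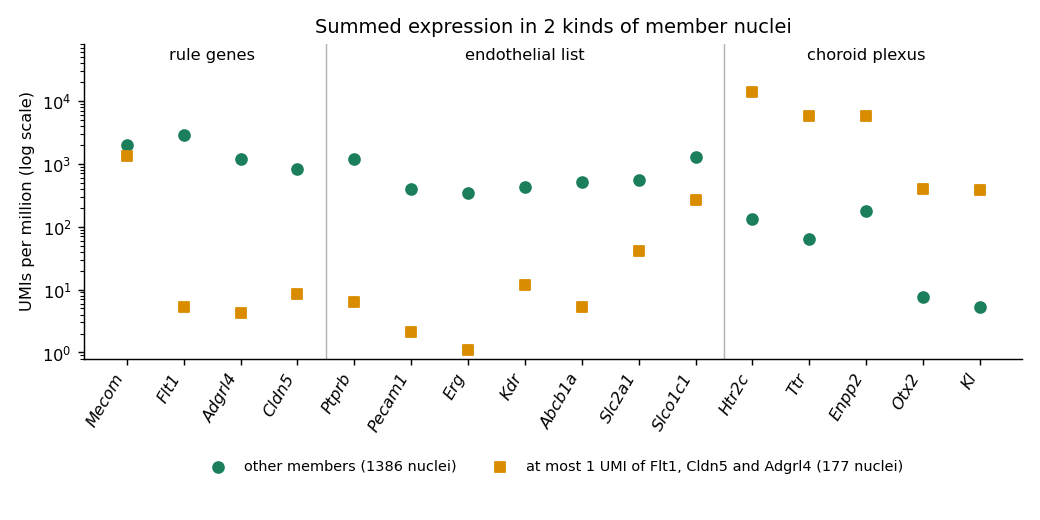
Summed levels (CPM, log axis) of rule genes, endothelial genes and choroid plexus genes in the 177 Mecom-kept nuclei (squares) and the other 1386 chosen nuclei (circles), over all 6 libraries. Mecom is at 1313 CPM in the former and 2006 in the latter, while Flt1 is at 5.37 against 2878 CPM and Htr2c at 13693 against 131 CPM.

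The threshold of 5 UMIs cut through nuclei of this kind. Just outside it, 104 nuclei had 4 UMIs of the rule genes, of which 86 met them mostly through Mecom, with a median of 2 UMIs over the 20 endothelial genes. Just inside, 58 nuclei had 5 UMIs, 50 of them mostly through Mecom, with a median of 3. Most chosen nuclei lay far from the threshold. The median count of the rule genes was 25 UMIs without the Mecom-kept nuclei, and all 4 rule genes were detected in 1029 of the 1563 nuclei, 3 in 307, 2 in 62 and 1 in 165.

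The 4 rule genes were Flt1 (GRCm38 chr5:147561604-147726011, minus strand), the VEGF receptor and decoy; Cldn5 (chr16:18776847-18778262, plus strand), the main claudin of the barrier; Mecom (chr3:29951296-30548008, minus strand); and Adgrl4 (chr3:151437887-151545086, plus strand), an adhesion G protein-coupled receptor. Summed over chosen nuclei, Flt1 was at 2200 to 2664 CPM per library, Mecom at 1803 to 2136, Adgrl4 at 914 to 1136 and Cldn5 at 561 to 867 CPM. Flt1 was detected in 88.0% of chosen nuclei, and in 98.9% of those left after the Mecom-kept nuclei were set aside.

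The 20 endothelial genes outside the rule summed to 7848, 8497 and 8251 CPM in the LPA libraries and 8080, 8592 and 7989 in the vehicle libraries. In all other nuclei they summed to 270 to 375 CPM, and in 1083 pericyte nuclei chosen by the mirrored rule (at least 5 UMIs of Abcc9 and Atp13a5) to 486 to 645 CPM. Across genes and libraries the chosen nuclei held 7.49-fold (Slco1c1, a thyroxine carrier that astrocytes also express) to 89.0-fold (Sox17, an endothelial transcription factor) the level of all other nuclei, and 18 of the 20 genes exceeded 10-fold in every library. Because these genes vary with the genes of the rule, the values describe the choice and are no test. Plvap, the diaphragm protein of fenestrated endothelium, the leaky form found in the choroid plexus stroma and circumventricular organs, reached 2 UMIs in 1 nucleus of LPA 1, 1 nucleus of LPA 2 and 0 nuclei of the other 4 libraries, where 0 nuclei allows a share of up to 0.980% to 1.33% (3 counts over the nuclei of a library, counting error only). This limits nuclei with 2 Plvap UMIs at the present depth, and not nuclei that express the gene.

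RNA listed for other cell types was present too, and the sums that follow include the genes that the rule holds low. Astrocyte genes summed to 3880, 4346 and 4084 CPM in endothelial nuclei of the LPA libraries and 3077, 4161 and 3704 in those of the vehicle libraries, with Slc1a2, the glutamate transporter, the most abundant. Neuronal genes, led by the noncoding RNA Meg3, summed to 2545 to 4765 CPM, and genes of oligodendrocyte precursors, led by Pcdh15, to 1075 to 1723 CPM. Oligodendrocyte genes, led by Mbp, summed to 789 to 1401 CPM. Pericyte genes, led by Rgs5, summed to 291 to 508 CPM, a range that included the 304 to 355 CPM of all other nuclei. Microglial and macrophage genes, led by Inpp5d, summed to 135 to 247 CPM with Csf1r at 0 by the rule, and meningeal fibroblast genes, led by Slc6a20a, to 129 to 264 CPM. Smooth muscle genes, led by Acta2, stayed at 4.61 to 20.1 CPM. Lymphatic genes summed to 68.9 to 106 CPM, led by Flt4, which blood endothelium also expresses, with Lyve1 at 0 in every library.

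Hemoglobin and other erythroid genes, led by Hbb-bs, summed to 796, 1063 and 1890 CPM in the LPA libraries and 2883, 1404 and 792 in the vehicle libraries. The groups overlapped, and the 5 richest nuclei of each library held 61.7% to 92.4% of these UMIs. Ependymal and choroid plexus genes, led by Ttr, summed to 1566, 1518 and 1136 CPM in the LPA libraries and 1728, 963 and 756 in the vehicle libraries. The groups overlapped. How far RNA from other cells entered the comparisons below was not tested.

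The chosen nuclei contained arterial and venous forms. With the Mecom-kept nuclei set aside, 212 nuclei had at least 2 UMIs of 10 arterial genes and fewer of 8 venous genes, 563 nuclei had the opposite, and 611 nuclei had neither. Their median depths were 2870.5, 3255 and 2501 UMIs. The following values come from the same cells that were split and are descriptions with no test. Log2 differences were taken within each library on CPM with 50 CPM added, over 8492 genes with at least 100 UMIs.

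Among genes that were not used for the split, 295 were higher in arterial nuclei in all 6 libraries and 555 were higher in venous nuclei in all 6. The arterial genes with the largest smallest difference over libraries began with Eln, the elastin of arterial walls, at 933 CPM in arterial against 55.6 in venous nuclei and a log2 difference of 2.01 to 4.18 across libraries. Arl15, a small GTPase, followed at 2767 against 707 CPM, and the chemokine Cxcl12 at 1118 against 253 CPM. Smad6, an inhibitor of bone morphogenetic protein (BMP) signaling, was at 223 against 49.95 CPM. The next were Lmo7, Col5a2, Tm4sf1, Gm609, Nuak1 and Nebl, whose pooled arterial levels were 101 to 1929 CPM.

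The venous genes began with Gm5127, a predicted gene, at 400 CPM in venous against 3.16 in arterial nuclei. Cysltr1, a leukotriene receptor, had 115 CPM in venous nuclei and no UMI in the 212 arterial nuclei. Piezo2, a mechanosensitive channel, was at 122 against 14.7 CPM, and Itga4, the integrin alpha 4 chain, at 215 against 49.5 CPM. Flrt2, Dcbld1, Apod, Rapgef5, Sema6a and Apln completed the first 10. Apln, the apelin ligand, had 88.6 CPM in venous, 7.37 in arterial and 30.4 CPM in the remaining nuclei.

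Barrier genes were unevenly spread along this axis. The taurine carrier Slc6a6 was at 1203 CPM in arterial and 712 in venous nuclei, and it was joined by Slco1c1 and by the lipid carrier Mfsd2a in being higher in arterial nuclei in 6 of 6 libraries. Higher in venous nuclei in 6 of 6 libraries were the large amino acid carrier Slc7a5 (738 against 429 CPM), the transferrin receptor Tfrc (632 against 374 CPM), the iron exporter Slc40a1 (263 against 124 CPM), the organic anion carriers Slco2b1 (263 against 92.7 CPM) and Slc22a8 (313 against 156 CPM), and Slc7a1, Slc39a8, Abcg2, Abcc4, Lrp8 and Car4. For Slc7a5, Slc7a1, Tfrc, Slc22a8, Slc40a1, Abcc4, Lrp8 and Car4 the pooled level was higher still in the nuclei with neither set. Slc2a1, the glucose transporter, was at 576 and 556 CPM and higher in arterial nuclei in 3 of 6 libraries, and the efflux pump Abcb1a at 451 and 513 CPM and higher in 2 of 6.

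Some junction genes were unevenly spread too. Tjp1, the scaffold ZO-1, was at 1108 CPM in arterial and 1583 in venous nuclei and was lower in arterial nuclei in 6 of 6 libraries, as were Magi1, Ctnnd1 and Jam3. VE-cadherin, Cdh5, had the opposite order in 6 of 6 libraries with 201 and 146 CPM. Cldn5 was at 795 and 763 CPM. Among the genes used for the split, Vcam1, listed as venous, was at 92.7 CPM in arterial and 43.9 in venous nuclei and higher in arterial nuclei in 5 of 6 libraries.

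**Figure D2:**
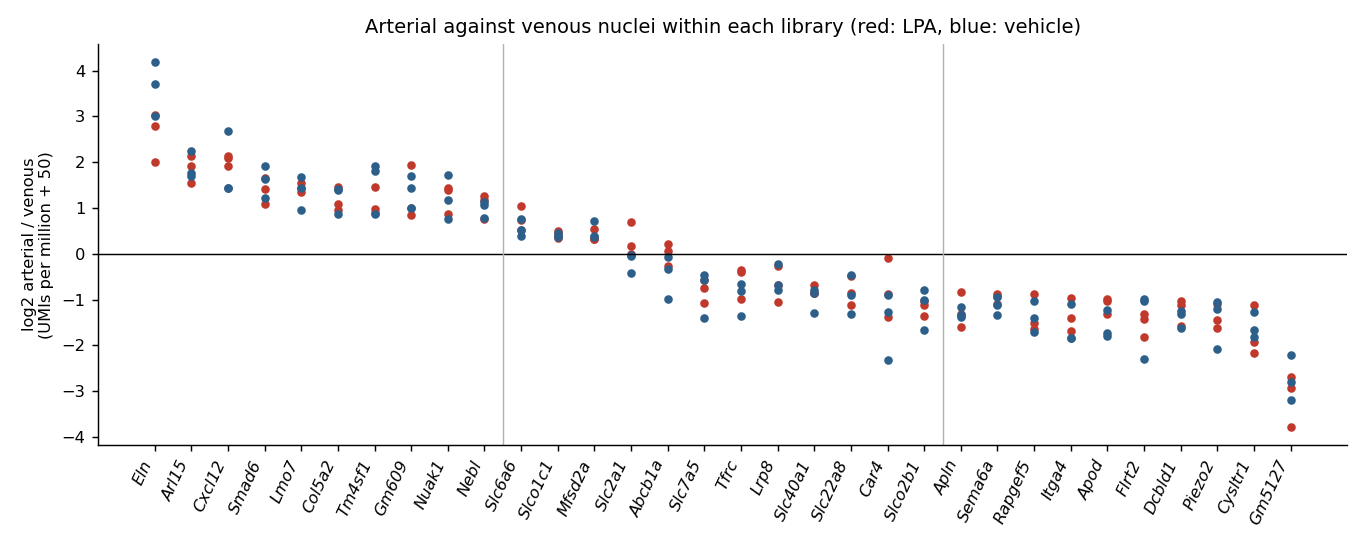
Log2 difference between arterial and venous nuclei (CPM plus 50) within each library, 1 point per library, red for LPA and blue for vehicle. The left and right blocks hold the 10 genes with the largest smallest difference over libraries each way, and the middle block transporters. Eln lies between 2.01 and 4.18 and Slc2a1 on both sides of 0.

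The first comparison between the groups was the abundance of endothelial nuclei. They were 2.66%, 2.79% and 3.19% of kept nuclei in the LPA libraries and 2.83%, 1.81% and 2.48% in the vehicle libraries. The LPA values were close together, and vehicle 1 lay within their range. The means were 2.88% ± 0.274 (SD, n = 3) and 2.37% ± 0.515, a difference of 0.504 percentage points with p = 0.3 in a two-sided exact permutation test over 20 assignments, in which 3 against 3 libraries cannot give a p below 0.1. Without the Mecom-kept nuclei the shares were 2.26%, 2.44% and 2.82% against 2.43%, 1.67% and 2.28% (exact permutation p = 0.4). Shares after sorting depend on how nuclei of each kind survive isolation, and fewer cells cannot be told apart from poorer recovery.

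Relative to pericytes, which wrap the capillaries, there were 1.64, 1.81 and 1.73 endothelial nuclei per pericyte nucleus in the LPA libraries and 1.75, 1.00 and 1.16 in the vehicle libraries. Vehicle 1 again lay among the LPA libraries, and vehicle 2 and vehicle 3 lay below. The means were 1.73 ± 0.0826 (SD, n = 3) and 1.30 ± 0.393 (exact permutation p = 0.3), and 1.51 and 1.16 without the Mecom-kept nuclei (exact permutation p = 0.2).

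Arterial nuclei were 16.7%, 12.9% and 17.9% of endothelial nuclei in the LPA libraries and 13.97%, 11.1% and 12.4% in the vehicle libraries. The groups overlapped at LPA 2 and vehicle 1 (means 15.9% ± 2.61 and 12.5% ± 1.43, SD, n = 3, exact permutation p = 0.2), and without the Mecom-kept nuclei the means were 17.4% and 13.4% (exact permutation p = 0.2). With every nucleus thinned to 1500 UMIs the shares were 9.84%, 9.72% and 10.98% against 7.14%, 8.78% and 9.01%. The groups then did not overlap (exact permutation p = 0.1, the smallest possible), and the difference was 1.87 percentage points against 3.37 before thinning. Without the mitochondrial filter they did not overlap either (exact permutation p = 0.1). With a criterion of 3 UMIs they overlapped, with a difference of 2.04 points (exact permutation p = 0.4). Pericyte nuclei passed the same 2-UMI criterion in 4.43% to 9.33% of cases. Every endothelial share by that criterion, before thinning, was above this range. Pericyte nuclei carry some genes of the arterial list themselves, so their share is no background from genes that they lack. Gja4 was at 34.1 to 58.8 CPM in them and at 6.45 to 15.8 CPM in endothelial nuclei without the Mecom-kept. Mgp was at 51.9 to 70.1 CPM in pericyte nuclei. The median depths of pericyte nuclei were 1976 to 2709.5 UMIs, a range that overlaps the endothelial one.

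Venous nuclei were 40.1%, 45.8% and 40.3% in the LPA libraries and 39.7%, 33.8% and 39.2% in the vehicle libraries. The groups did not overlap, with vehicle 1 just below LPA 1, and the exact permutation p was 0.1, the smallest possible. The same criterion was passed by 34.1%, 41.1% and 39.9% of pericyte nuclei in the LPA libraries and 34.4%, 36.4% and 28.5% in the vehicle libraries. Nr2f2, a transcription factor of veins on the venous list, was at 229 to 342 CPM in pericyte nuclei and at 38.0 to 94.6 CPM in endothelial nuclei without the Mecom-kept, whereas Vwf, the von Willebrand factor, was at 2.08 to 8.86 and 199 to 332 CPM. With Nr2f2 taken off the venous list, an alternative chosen after seeing the data, 33.9%, 41.3% and 35.2% of endothelial nuclei passed in the LPA libraries and 35.8%, 27.6% and 33.99% in the vehicle libraries. Of pericyte nuclei 3.80% to 14.9% then passed, all below the endothelial values. The groups overlapped, with vehicle 1 above LPA 1 and LPA 3 (exact permutation p = 0.5). On the whole list the groups overlapped without the Mecom-kept nuclei (exact permutation p = 0.5), and with every nucleus thinned to 1500 UMIs the means were 27.0% and 26.0% (exact permutation p = 1.0).

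Nuclei with at least 2 UMIs of 19 genes of cell division were 8.81%, 9.79% and 7.24% of endothelial nuclei in the LPA libraries and 5.68%, 4.44% and 6.54% in the vehicle libraries. All LPA values lay above all vehicle values (means 8.61% ± 1.29 and 5.55% ± 1.05, SD, n = 3, exact permutation p = 0.1, the smallest possible). Other measurements stand beside this difference. Pericyte nuclei passed the criterion in 8.70%, 7.59% and 7.74% of cases in the LPA libraries and 6.11%, 4.44% and 4.18% in the vehicle libraries. Thinned to 1500 UMIs, the endothelial shares were 1.04%, 1.21% and 3.25% against 2.04%, 1.46% and 3.43%, a difference of -0.478 percentage points that rests on 2 to 8 nuclei per library. Without Scrublet-called nuclei the shares were 7.39%, 6.55% and 6.33% against 5.59%, 4.12% and 6.70%, where the groups overlapped (exact permutation p = 0.3). Without the Mecom-kept nuclei the means were 7.02% and 4.13%, and with a criterion of 3 UMIs 3.08% and 1.89%, both with all LPA above all vehicle values (exact permutation p = 0.1). The summed level of the 19 genes was 149, 102 and 92.4 CPM in LPA and 115, 82.3 and 131 CPM in vehicle endothelial nuclei, where the groups overlapped. LPA 3 and vehicle 1, with nearly equal median depths, had 7.24% and 5.68%. No difference in dividing cells is read from these shares.

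**Figure D3:**
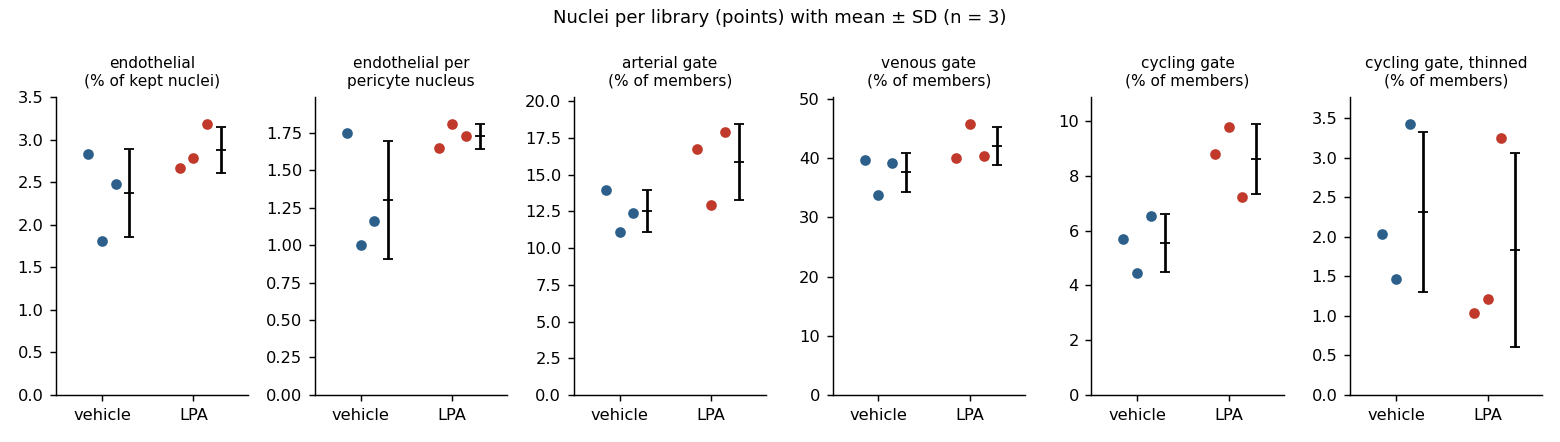
Values per library (points, blue for vehicle, red for LPA) with the mean and SD of 3 libraries: percent of kept nuclei that were endothelial, endothelial nuclei per pericyte nucleus, and percent of endothelial nuclei that passed the arterial, venous and cycling criteria, the last also after thinning to 1500 UMIs. The cycling shares do not overlap between groups before thinning (7.24% to 9.79% against 4.44% to 6.54%) and overlap after it.

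The second comparison was expression. UMIs were summed over the endothelial nuclei of each library and 11220 genes were tested with edgeR's quasi-likelihood test and Benjamini-Hochberg adjustment. No gene (0.00%) reached an adjusted p under 0.05 with a log2 fold-change of at least 0.25, and the lowest adjusted p was 0.107. In simulated counts 63.5% of genes changed by 1 log2 unit were called, so that changes of this size could be missed. At an unadjusted p under 0.05 there were 711 genes (6.34%), 351 higher (3.13%) and 360 lower (3.21%) in LPA. In either direction there were 548 of 9236 tested genes without Scrublet-called nuclei and 824 of 10487 without the Mecom-kept nuclei. Counts of gene groups in these 2 settings stand against those numbers. All LPA libraries lay above all vehicle libraries for 679 genes (6.05%) and below for 659 (5.87%). The median log2 fold-change of all tested genes was 0.01. DESeq2 called 7 genes, 1 higher (Npas3) and 6 lower (Reln, Tbc1d4, Atp10a, mt-Co3, mt-Atp6 and mt-Nd2). In all other nuclei, which hold far more UMIs, 638 of 20546 genes were called higher (3.11%) and 434 lower (2.11%). The values below are CPM scaled by edgeR's normalization factors, in the order LPA 1, 2, 3 and vehicle 1, 2, 3, and differences are log2 fold-changes ± SE.

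Of the 20 endothelial genes outside the rule, all tested, 1 was higher (Eng) and 4 were lower (Abcb1a, Itm2a, Ly6c1 and Emcn) at an unadjusted p under 0.05, with a median log2 fold-change of -0.06. Without Scrublet-called nuclei 0 were higher and 4 lower (median -0.16), and without the Mecom-kept nuclei 3 were higher and 3 lower (median -0.01). Of 10 arterial genes 7 were tested, with 2 higher (Vegfc and Sema3g), 1 lower (Mgp) and a median of 0.30. Without Scrublet-called nuclei the 2 higher were Bmx and Fbln5. Of 6 capillary genes 1 was lower (Car4), and none of 6 tested venous genes had an unadjusted p under 0.05. Of 6 tested genes of tip cells, the leading cells of sprouting vessels, 1 was higher (Angpt2), and 0 without Scrublet-called nuclei.

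The junction genes seal the barrier. None of the 18 junction genes outside the rule, all tested, had an unadjusted p under 0.05, and their median log2 fold-change was -0.00. Cldn5, on which nuclei were chosen, was at 582, 642 and 749 CPM against 880, 738 and 677, with LPA 1 and LPA 2 lowest and the groups overlapping. Tjp1 was at 1391, 1380 and 1168 CPM against 1272, 1332 and 1423 (-0.03 ± 0.11). The scaffold proteins Magi1 and Pard3 differed by 0.11 ± 0.11 and 0.03 ± 0.12.

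Of 26 transporter genes 25 were tested, with 1 higher (Abcc6) and 5 lower (Slc7a5, Slc19a3, Slc39a10, Abcb1a and Abcg2) at an unadjusted p under 0.05 and a median of -0.05. Without Scrublet-called nuclei 0 were higher and 8 lower, and without the Mecom-kept nuclei 1 was higher and 2 lower (Slc39a10 and Abcg2). The 4 most abundant were Slco1c1, Slco1a4, Slc6a6 and Slc7a5. Slco1a4, an organic anion carrier, was at 1206, 1116 and 1060 CPM against 1165, 1194 and 1148 (-0.05 ± 0.10), and Slco1c1 and Slc6a6 differed by 0.09 ± 0.11 and -0.02 ± 0.12. These 3 did not separate the groups. Slc7a5 was at 669, 624 and 556 CPM against 920, 682 and 671 (-0.30 ± 0.13), with every LPA library below every vehicle library. Slc2a1 was at 340, 567 and 407 CPM against 518, 523 and 555, with LPA 2 the highest of all 6 libraries (-0.28 ± 0.15).

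Abcg2, the breast cancer resistance protein, was at 294, 284 and 272 CPM against 375, 348 and 416 (-0.42 ± 0.10, unadjusted p = 0.00125, adjusted p = 0.368 in edgeR). Car4, a carbonic anhydrase of capillaries, was at 177, 193 and 189 CPM against 281, 262 and 232 (-0.47 ± 0.11, adjusted p = 0.357 in edgeR). Both were chosen after their values were seen. For each of them the groups did not overlap, and neither passed the adjustment. Of 7 transcytosis genes 6 were tested, none with an unadjusted p under 0.05. Mfsd2a, which restrains vesicle transport at the barrier, was at 196, 214 and 242 CPM against 223, 201 and 173 (0.13 ± 0.12). Cav1, the caveolin of vesicles, Ehd4 and Cavin2 differed by 0.21 ± 0.19, 0.16 ± 0.21 and -0.06 ± 0.28. Without Scrublet-called nuclei Mfsd2a differed by -0.09, Cav1 by 0.01, Ehd4 by 0.23 and Cavin2 by -0.22.

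Genes of VEGF and angiopoietin signaling lay on the higher side. Of 15 genes outside the rule 13 were tested, 4 were higher at an unadjusted p under 0.05 (Vegfc, Angpt2, Vegfa and Robo4) and 0 lower, 6 had all LPA above all vehicle libraries, and the median was 0.22 against 0.01 for all genes. None passed the adjustment. Without Scrublet-called nuclei 1 of the 13 (Vegfa) was higher, with a median of 0.11, and without the Mecom-kept nuclei 5 were. The receptors were Flt1, at 2766, 2448 and 2568 CPM against 2365, 2699 and 2267, which is a gene of the rule, and Kdr, the main VEGF receptor, at 365, 405 and 443 CPM against 353, 336 and 351 (0.22 ± 0.11, and 0.11 without Scrublet-called nuclei). Kdr was higher in each LPA library than in any vehicle library. The angiopoietin receptor Tek and its phosphatase Ptprb differed by -0.06 ± 0.12 and 0.14 ± 0.11.

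Vegfc, Angpt2 and Robo4 were chosen after their values were seen. Vegfc, a growth factor best known from lymphatic vessels, was at 102, 98.6 and 101 CPM against 58.7, 59.5 and 78.0 (0.61 ± 0.15, adjusted p = 0.367 in edgeR). The LPA libraries were almost level with each other and all above the vehicle libraries. Angpt2, the ligand that destabilizes vessels, was at 81.3, 82.0 and 68.1 CPM against 36.0, 45.9 and 69.0 (0.61 ± 0.21), so that vehicle 3 reached the LPA range. Robo4, which stabilizes vessels, was at 137, 119 and 134 CPM against 112, 89.3 and 90.0 (0.42 ± 0.13). Without Scrublet-called nuclei the differences of Vegfc and Angpt2 were 0.36 and 0.26.

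For Notch, 9 of 11 genes were tested, with 1 higher (Notch1) and a median of 0.11. Notch1 was at 158, 161 and 173 CPM against 150, 129 and 111 (0.33 ± 0.13, and 0.17 without Scrublet-called nuclei) and did not overlap, while the endothelial receptor Notch4, the ligand Jag2 and the nuclear effector Rbpj differed by -0.25 ± 0.14, 0.10 ± 0.17 and 0.36 ± 0.18. Rbpj also had all LPA above all vehicle libraries, and Notch4 all below. Without Scrublet-called nuclei none of the Notch genes had an unadjusted p under 0.05 and the median was 0.01. For Wnt, which maintains the barrier, 16 of 17 genes were tested, with 1 higher (the coreceptor Lrp5), 1 lower (the receptor Fzd4) and a median of 0.04. The Wnt effector Lef1 and the targets Apcdd1 and Tnfrsf19 differed by -0.01 ± 0.12, -0.07 ± 0.11 and 0.14 ± 0.11, and Ctnnb1, the effector beta-catenin, by -0.13 ± 0.12. For TGF-beta and BMP, 16 of 18 genes were tested, with 1 higher and a median of 0.04. That gene was Eng, the coreceptor endoglin, at 452, 420 and 496 CPM against 380, 391.8 and 379 (0.25 ± 0.10, and 0.14 without Scrublet-called nuclei, where none of the 16 had an unadjusted p under 0.05), and the receptors Bmpr2 and Tgfbr2 and the target Id1 differed by 0.00 or -0.06.

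The receptors and enzymes of LPA and S1P were of interest because LPA was the agent injected. Of 20 genes 11 were tested, with 1 higher (Plpp3), 1 lower (S1pr1) and a median of 0.04. S1pr1, the main S1P receptor of endothelium, was at 77.5, 85.5 and 86.1 CPM against 114, 122 and 123 (-0.52 ± 0.13, unadjusted p = 0.00105, adjusted p = 0.367 in edgeR). The 3 LPA libraries lay together and clearly below the 3 vehicle libraries, and without the Mecom-kept nuclei the difference was -0.50. In all other nuclei it was -0.01, and the difference between endothelial and other nuclei had an adjusted p of 0.28 in edgeR.

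The LPA receptors were low. Lpar6 was at 37.3, 29.7 and 20.5 CPM against 38.1, 27.3 and 27.99 (-0.11 ± 0.26). Lpar1 was at 15.3, 17.5 and 9.84 CPM against 21.6, 13.6 and 18.0 (-0.34 ± 0.31), and Lpar4 at 7.65, 10.47 and 8.20 CPM against 6.17, 17.4 and 10.0 (-0.30 ± 0.41). For these 3 receptors the groups overlapped, and differences of their size could not be resolved at this depth. The lipid phosphatase Plpp3, which degrades LPA outside the cell, was at 253, 249 and 235 CPM against 169, 248 and 177 (0.32 ± 0.14, and 0.65 without Scrublet-called nuclei), with vehicle 2 in the LPA range. Plpp1, a related phosphatase, differed by 0.12 ± 0.15, and Enpp2 by 0.04 ± 0.21, with 84.3% of its UMIs in the Mecom-kept nuclei. Enpp2 differed by 0.18 without the Mecom-kept nuclei and by -0.20 without Scrublet-called nuclei.

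Endothelium takes part in inflammation through adhesion molecules and cytokine receptors. Of 22 genes of adhesion and inflammation 13 were tested, none with an unadjusted p under 0.05, with a median of 0.04. The 4 most abundant were Cxcl12, the interleukin 1 receptor Il1r1, and Nfkb1 and Nfkbia, of the NF-kB pathway, which ranged from -0.20 ± 0.34 (Il1r1) to 0.18 ± 0.10 (Nfkb1). Cxcl10 had no UMI in these nuclei. Of 28 interferon genes 17 were tested, none with an unadjusted p under 0.05, with a median of 0.15 and 15 values above 0. The median in all other nuclei was 0.20. The RNA sensor Ddx58, the transcription factor Stat2 and the class I gene H2-D1 differed by -0.03 ± 0.20, 0.00 ± 0.19 and 0.06 ± 0.16.

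Genes of the glucocorticoid response lay on the lower side. Of 23 genes 19 were tested, 7 were lower at an unadjusted p under 0.05, 0 were higher, and 7 had all LPA below all vehicle libraries, with a median of -0.21 against 0.01 for all genes. None passed the adjustment. Without Scrublet-called nuclei 5 of 17 were lower, with a median of -0.36, and without the Mecom-kept nuclei 7 of 19, with a median of -0.17. Fkbp5, a cochaperone of the glucocorticoid receptor, was at 33.5, 28.8 and 27.1 CPM against 55.6, 58.3 and 79.0 (-1.12 ± 0.20, adjusted p = 0.137 in edgeR). Tsc22d3, the glucocorticoid-induced leucine zipper, was at 37.3, 45.4 and 41.0 CPM against 55.6, 67.0 and 64.0 (-0.59 ± 0.17). Both separated the groups.

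Zbtb16, a transcription factor, was at 165, 98.6 and 86.1 CPM against 191, 181 and 282 (-0.92 ± 0.22), and Klf9 at 113, 133 and 123 CPM against 163, 165 and 148 (-0.36 ± 0.12, and -0.19 without Scrublet-called nuclei), again without overlap. The other 3 with an unadjusted p under 0.05, chosen after their values were seen, were the clock gene Per1 (-0.52 ± 0.17, and -0.34 without the Mecom-kept nuclei), the sulfotransferase Sult1a1 (-1.16 ± 0.31) and the cell cycle inhibitor Cdkn1a (-0.53 ± 0.22). The receptor itself, Nr3c1, was at 185, 225 and 211 CPM against 212, 200 and 220 (-0.03 ± 0.11), and the phagocytic receptor Mertk differed by -0.14 ± 0.13. The shift was also present in all other nuclei, where the 23 genes had a median of -0.23 and Fkbp5, Tsc22d3 and Zbtb16 were called lower at -0.91, -0.62 and -0.65. The difference of Fkbp5 between endothelial and other nuclei was -0.22 (adjusted p = 0.87 in edgeR).

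Of 18 hypoxia genes 16 were tested, with 2 higher (Vegfa and P4ha1), 1 lower (Ndrg1) and a median of -0.02. Without Scrublet-called nuclei P4ha1 differed by 0.14, against 0.34 with them, and no longer had an unadjusted p under 0.05. The oxygen-sensing factors Epas1 and Hif1a differed by -0.10 ± 0.10 and 0.03 ± 0.13. Of 22 genes of basement membrane and integrins 21 were tested, with 2 higher (Lama4 and Adamts1) and a median of 0.09. Without Scrublet-called nuclei 1 was higher and 1 lower, the median turned to -0.04 and 10 of 21 values lay above 0. Lama4, the laminin chain of vessels, was at 408, 393 and 419 CPM against 328, 332 and 382 (0.23 ± 0.10, and 0.13 without Scrublet-called nuclei, where its unadjusted p was over 0.05), and Fn1, Sparc and Col4a2 differed by 0.06 ± 0.10, -0.17 ± 0.15 and 0.10 ± 0.12. All 22 endothelial transcription factors were tested and none had an unadjusted p under 0.05 (median -0.02). The most abundant were Fli1, Lef1, Ets1 and Epas1. Of 11 genes of flow sensing and vessel tone, all tested, 2 were higher (Piezo1 and Edn1) with a median of 0.12. The mechanosensitive channel Piezo1 was at 135, 150 and 134 CPM against 116, 125 and 108 (0.27 ± 0.12) and did not overlap, while the flow-induced factor Klf2, the nitric oxide synthase Nos3 and Vwf differed by -0.26 ± 0.16, 0.21 ± 0.11 and 0.27 ± 0.14, of which Nos3 also had all LPA above all vehicle libraries. In all other nuclei Piezo1 and Vwf were called higher, at 0.43 and 0.61, and Klf2 and Nos3 were not called. Without Scrublet-called nuclei neither Piezo1 nor Edn1 had an unadjusted p under 0.05 in endothelial nuclei and Nos3 did, while without the Mecom-kept nuclei 4 of the 11 were higher.

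The medians of several other groups also turned below 0 without Scrublet-called nuclei. They were then -0.11 for Wnt, with Lrp5 still higher and Fzd4 no longer lower, -0.13 for LPA and S1P, and -0.14 for adhesion and inflammation. The interferon median was 0.10 with 10 of 17 values above 0, and 1 endothelial transcription factor (Lmo2) was lower. Without the Mecom-kept nuclei 3 Wnt genes were higher and 1 lower.

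**Figure D4:**
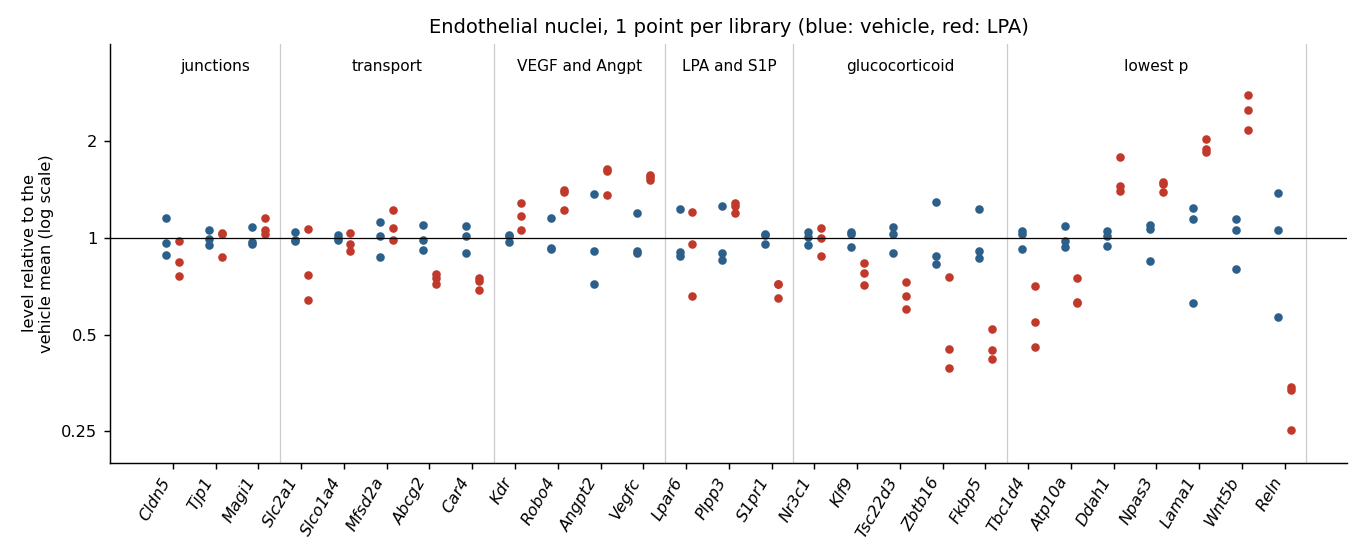
Level of named genes in endothelial nuclei of each library relative to the mean of the 3 vehicle libraries (log axis), blue for vehicle and red for LPA. S1pr1, Fkbp5, Tsc22d3, Abcg2 and Car4 have all LPA points below all vehicle points, and Vegfc, Wnt5b and Lama1 all above; none of them reached an adjusted p under 0.05.

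Lists of other cell types showed differences of their own. Of 15 astrocyte genes 4 were higher at an unadjusted p under 0.05 (Gfap, Aqp4, Bmpr1b and Rfx4), with a median of 0.23 in endothelial and 0.20 in other nuclei. Without Scrublet-called nuclei 5 of 14 were higher (median 0.43), and without the Mecom-kept nuclei 2 of 15. Gfap, the filament protein of reactive astrocytes, was at 25.8, 53.2 and 46.7 CPM against 27.8, 11.2 and 16.0, so that LPA 1 lay below vehicle 1 (1.18 ± 0.33, 1.87 without Scrublet-called nuclei, and 1.54 in all other nuclei). Of 5 meningeal fibroblast genes outside the rule that were tested 2 were lower (Cemip and Slc6a20a), with a median of -0.55, and the median in other nuclei was -0.79. Without Scrublet-called nuclei 1 of the 2 that were still tested (Slc6a20a) was lower. Cemip, a hyaluronidase, was at 11.5, 17.5 and 13.9 CPM against 29.8, 26.0 and 41.0 (-1.18 ± 0.27).

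The 9 tested genes of ependyma and choroid plexus had a median of 0.32, which became -0.74 over the 5 left without the Mecom-kept nuclei. For neurons the median was -0.28 with 2 of 9 lower. It was 0.13 with 0 of 9 lower without Scrublet-called nuclei, and -0.35 with 5 of 9 lower without the Mecom-kept nuclei. Outside the rule, the median for oligodendrocytes was -0.23 with 2 of 8 lower, for their precursors 0.36 with 1 of 8 higher, for pericytes 0.11 over 4 genes and for microglia 0.00 over 5 genes, the last 2 with none under 0.05. Without Scrublet-called nuclei the median was -0.42 for oligodendrocytes with 3 of 7 lower, and 0.12 for precursors with 0 of 6 higher. The part of RNA from these cells in the endothelial values was not tested.

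The genes of lowest p were chosen after their values were seen. Reln, the secreted protein reelin, had the lowest at 52.6, 51.5 and 38.5 CPM against 162, 86.8 and 210 (-1.70 ± 0.26, adjusted p = 0.107 in edgeR). All vehicle libraries lay above all LPA libraries. The UMIs were concentrated, however. In the vehicle libraries the 3 richest nuclei held 121 of 157, 44 of 70 and 160 of 210 Reln UMIs, and 10 nuclei with at least 10 Reln UMIs held 340 of the 598 in all libraries. Of these 10 nuclei 9 were from vehicle libraries and 9 were called by Scrublet, and their median count over 10 neuronal genes was 58 UMIs against 5 in the other nuclei. Without Scrublet-called nuclei the Reln difference was 0.00.

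Mitochondrial transcripts were the next, but nuclei with more than 1% of such UMIs had been left out, so that the choice of nuclei used these values. Their levels in the kept nuclei are given as a description, with a median log2 fold-change of -0.95 over 10 transcripts. mt-Co2 was at 60.3, 110 and 158 CPM against 260, 227 and 258 (-1.17 ± 0.23), and mt-Co3 at 121, 170 and 207 CPM against 321, 315 and 348 (-0.97 ± 0.15). The mitochondrial share of endothelial UMIs was 0.0509%, 0.0778% and 0.101% in the LPA libraries and 0.153%, 0.138% and 0.165% in the vehicle libraries. It moved in the same direction in all other nuclei, at 0.0240%, 0.0336% and 0.0538% against 0.102%, 0.0747% and 0.102%, where the median log2 fold-change was -1.34. Without the filter the endothelial shares were 0.109%, 0.232% and 0.309% against 0.441%, 0.387% and 0.761%, again with all LPA below all vehicle libraries, and 10 of 10 transcripts were lower at an unadjusted p under 0.05 (median -1.33). None of mt-Co2, mt-Co3, mt-Nd2 and mt-Atp6 then passed the adjustment. Such transcripts are made in mitochondria, outside the nucleus.

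Among nuclear genes, Tbc1d4, a regulator of insulin-dependent glucose transporter traffic, was at 359, 278 and 233 CPM against 535, 521 and 470 (-0.81 ± 0.14, adjusted p = 0.137 in edgeR, called with DESeq2). The groups were well apart. Atp10a, a lipid flippase, was at 431, 361 and 363 CPM against 562, 538 and 624 (-0.58 ± 0.11, called with DESeq2), and Chka, a choline kinase, at 186, 202 and 195 CPM against 264, 264 and 296 (-0.50 ± 0.10). Atp10a was called lower in all other nuclei too (-0.41). On the other side, Wnt5b, a Wnt ligand, was at 39.2, 30.5 and 35.3 CPM against 11.3, 16.1 and 14.995 (1.31 ± 0.25, adjusted p = 0.164 in edgeR), and in all other nuclei it differed by -0.02. Without the Mecom-kept nuclei the endothelial difference of Wnt5b was 1.67. C4b, the complement component, was at 21.0, 34.0 and 16.4 CPM against 6.17, 3.72 and 1.00 (2.68 ± 0.49), and it was called higher in all other nuclei too (1.49). Its vehicle values rested on 6, 3 and 1 UMIs, and without Scrublet-called nuclei C4b was no longer tested. Ddah1, which degrades inhibitors of nitric oxide synthase, was at 143, 149 and 183 CPM against 108, 96.7 and 104 (0.62 ± 0.13). It was called higher in all other nuclei as well (0.54). Npas3, a neural transcription factor, was at 899, 886 and 836 CPM against 509, 660 and 640 (0.54 ± 0.12), close to its 0.50 in all other nuclei.

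The third comparison asked whether the LPA effect differed between endothelial nuclei and all other nuclei of the same libraries. The interaction, with the library as a block, was called for 19 of 11220 genes (0.169%), 9 with a higher effect in endothelial nuclei (0.0802%) and 10 with a lower (0.0891%). In 15 of the 19 the other nuclei were themselves called, and in 10 the endothelial effect had an unadjusted p under 0.05. Other nuclei are a mixture of cell types. Their microglial and macrophage genes summed to 447, 414 and 321 CPM in the LPA libraries against 216, 338 and 168 in the vehicle libraries, and their meningeal fibroblast genes to 479, 614 and 481 against 864, 933 and 970 CPM. The rule limits both kinds among the endothelial nuclei through Csf1r, Bnc2 and Slc6a13. In endothelial nuclei the 2 lists still summed to 135 to 247 and 129 to 264 CPM. What part the shifts in other nuclei had in the 19 calls was not tested.

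Lama1, a laminin chain of basement membrane, had an endothelial level of 96.6, 94.2 and 103 CPM against 31.9, 58.3 and 63.0 (0.95 ± 0.20, adjusted p = 0.246 in edgeR). In other nuclei it was at 26.9, 27.0 and 22.5 CPM against 38.1, 41.1 and 46.0, so that the groups separated in opposite directions and the effects differed by 1.67 ± 0.19 log2 units (adjusted p = 0.00123 in edgeR). Trabd2b, a metalloprotease that inactivates Wnt proteins, had 57.4, 54.1 and 43.5 CPM against 30.9, 31.0 and 31.0 in endothelial nuclei and 39.0, 45.7 and 44.3 against 71.0, 75.5 and 79.4 in other nuclei (1.53 ± 0.19). Again the order of the groups was opposite. The endothelial difference of Trabd2b was 0.73, and 0.47 without Scrublet-called nuclei. Nxn, a redox protein that binds Dishevelled, had 648, 634 and 561 CPM against 485, 398 and 459 in endothelial nuclei and 171, 177 and 147 against 191, 182 and 200.5 in other nuclei, so that its groups too separated in opposite directions (0.66 ± 0.10). For Arhgap28 (1.18 ± 0.14) and the amino acid carrier Slc38a2 (0.87 ± 0.13) most of the difference lay in other nuclei, where both were called lower. Without Scrublet-called nuclei Nxn and Slc38a2 were no longer called in the interaction, whereas Lama1, Trabd2b, Arhgap28 and Bmp6 were. The endothelial difference of Nxn was nevertheless about as large, at 0.459 against 0.456 with these nuclei, and that of Slc38a2 was 0.113 against 0.188.

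Tbc1d4 was the clearest in the other direction, since its level in other nuclei was 46.2, 47.7 and 43.9 CPM against 43.8, 44.3 and 44.1, with an effect of 0.06 ± 0.05, and the effects differed by -0.90 ± 0.12 (adjusted p = 0.00265 in edgeR). Reln differed by -1.65 ± 0.25, and by 0.05 without Scrublet-called nuclei. Rasgrp3 (-1.04 ± 0.14), Arhgap25 (-1.83 ± 0.27) and Fli1 (-0.99 ± 0.15), which microglia and other immune cells also express, had endothelial effects of -0.16 ± 0.10, -0.20 ± 0.26 and 0.16 ± 0.11 and were called higher in other nuclei, at 0.86, 1.59 and 1.12.

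**Figure D5:**
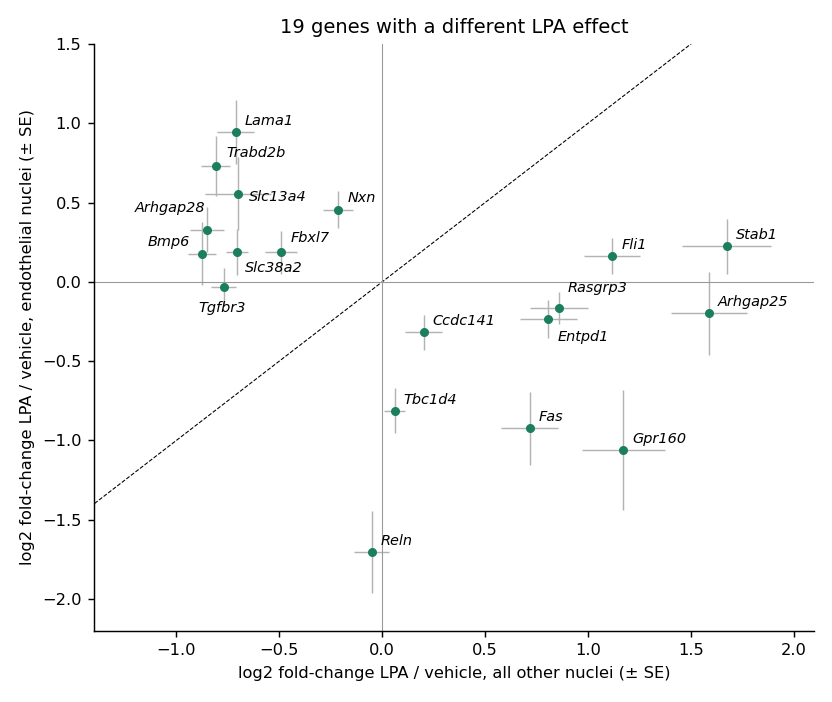
Log2 fold-change of LPA against vehicle (± SE) in all other nuclei (horizontal axis) and in endothelial nuclei (vertical axis) for the 19 genes whose effects differed, with equal effects on the dashed line. Lama1, at -0.71 and 0.95, lies in the upper left quadrant, and Tbc1d4, at 0.06 and -0.81, close to the vertical zero line.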

How the data were processed

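The deposited files hold raw UMI counts per gene and barcode for each of the 6 libraries, which the authors made with Cell Ranger 4.0.0 on the mm10 genome with introns counted. Barcodes were filtered, endothelial nuclei were chosen by the UMI rule, and counts were summed per library over these nuclei and over all other kept nuclei. Sums were tested with edgeR 4.0.16 (TMM factors, filterByExpr, quasi-likelihood test, Benjamini-Hochberg adjustment), which was tested on simulated data, and with DESeq2 1.42.0 as an alternative. In the simulated data 200 of 11220 genes were changed by 1 log2 unit. Of these 63.5% were called, and of the unchanged genes 0.118%. A gene was called at an adjusted p under 0.05 if its log2 fold-change was 0.25 or more in size. For differential expression the study tested nuclei, whereas the library was the replicate here. The p-values here therefore judge a difference against the spread between libraries. Gene coordinates are from the GENCODE annotation of GRCm38. Shares were compared by exact permutation. Replicates of a group differed by more than counting noise (chi-square per degree of freedom 1.98 to 2.81). The chosen nuclei and the gene lists were selected with earlier results of these data known. Named were the 4 most abundant genes of each pathway list, the most abundant gene of each list of another cell type, the rule genes, 11 single genes of interest, and up to 5 interaction genes each way. A gene that this rule names is not reported here. Other genes are said to be chosen after their values were seen, or listed by their p.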

Additional observations from a re-analysis of the deposited data

Results flagged for a closer look

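In 19 genes the LPA effect in endothelial nuclei differed from that in all other nuclei by the interaction test (edgeR, adjusted p under 0.05). The effect was higher in endothelial nuclei, in log2 units, for Lama1 (1.67), Trabd2b (1.53), Slc13a4 (1.27), Arhgap28 (1.18), Bmp6 (1.04), Slc38a2 (0.867), Tgfbr3 (0.729), Fbxl7 (0.679) and Nxn (0.664). It was lower for Gpr160 (-2.29), Arhgap25 (-1.83), Fas (-1.66), Reln (-1.65), Stab1 (-1.52), Entpd1 (-1.07), Rasgrp3 (-1.04), Fli1 (-0.987), Tbc1d4 (-0.895) and Ccdc141 (-0.525).

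Fas, the death receptor, was at 23.9, 20.9 and 16.4 CPM in endothelial nuclei of the LPA libraries against 32.9, 43.4 and 39.99 in those of the vehicle libraries, and at 3.70, 3.09 and 3.24 against 2.32, 1.96 and 1.84 CPM in other nuclei, so that both orders separated the groups in opposite directions. Ccdc141 was at 1591, 1476 and 1300 CPM against 1739, 1773 and 1935 in endothelial nuclei. Stab1, a scavenger receptor of sinusoidal endothelium and macrophages, differed by 0.22 ± 0.17 in endothelial and 1.67 ± 0.21 in other nuclei, and Tgfbr3, a TGF-beta coreceptor, by -0.03 ± 0.12 and -0.77 ± 0.06. Without Scrublet-called nuclei 8 of the 19 were called again (Arhgap28, Bmp6, Lama1, Trabd2b, Entpd1, Fli1, Rasgrp3 and Tbc1d4), and Fas, Ccdc141, Stab1 and Tgfbr3 were not. Without the Mecom-kept nuclei 17 of the 19 were. Bmp6 then differed by 0.35 (adjusted p = 0.803 in edgeR, the highest of 18 alternatives, from 1.61e-08), and Slc13a4, a sulfate carrier, was no longer tested.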

How the results depend on the processing

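Leaving out the Mecom-kept nuclei and taking Nr2f2 off the venous list were chosen after seeing the data. Endothelial genes called higher in LPA numbered 0, but 1 with DESeq2 and 32 without a filter on low counts (21654 genes tested). Those called lower numbered 0, but 6 with DESeq2, 41 without the filter, 2 with equal numbers of nuclei per library (Reln and mt-Co3) and 1 without the Mecom-kept nuclei (Reln, adjusted p = 0.0219 in edgeR, over all alternatives 1.17e-20 to 0.999). Without the filter the higher genes included Xist and Tsix, and the lower genes the Y-linked Ddx3y, Eif2s3y, Kdm5d and Uty. The sexes were unequal in number between the groups. Leaving out each library in turn gave 0 to 4 higher and 0 to 5 lower, with 5 mitochondrial genes without LPA 3, 4 higher and 2 lower without vehicle 1, and Reln alone without vehicle 2. The lowest adjusted p of any gene ranged from 1.17e-20 (no filter) to 0.473 (without vehicle 3). The interaction called 8 genes without Scrublet calls, 30 with DESeq2, 74 without the filter, 39 without the Mecom-kept nuclei, and 10 (without vehicle 3) to 28 (without vehicle 1) with a library left out. Lama1 and Tbc1d4 were called in the interaction under all 18 alternatives, with adjusted p up to 0.0161 and 0.0256. The cause of these changes was not tested. The interaction of Reln reversed to 0.0539 without Scrublet calls, and thinning to 1500 UMIs reversed the differences in cycling (-0.478 points) and Plvap (-0.0351 points) nuclei. Leaving out single libraries moved the difference in endothelial share between 0.223 and 0.73 percentage points, in arterial share between 2.34 and 4.83, in venous share between 2.6 and 5.58, in cycling share between 2.47 and 3.75, in Plvap share between 0.175 and 0.395, and in endothelial per pericyte nuclei between 0.271 and 0.645.

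LPA and vehicle libraries share only a replicate number. Same-numbered libraries had correlated deviations of 0.13, 0.0927 and 0.0328, and 5 of the 6 libraries correlated best with their own number, the exception being LPA 3 with vehicle 2. With the replicate block 0 genes were higher and 5 lower (Reln, Tbc1d4, mt-Co3, mt-Atp6 and mt-Nd2), and the interaction called 21. Since no gene was called in endothelial nuclei, 2019 of 2061 values of single genes under alternatives were also not called and 42 were. The sign was opposite in 128 of the 2061, in each case with at least 1 of both values within 1 SE of 0. Depth limits low genes such as the LPA receptors.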
